A study of Mus musculus with 6 samples.

Results

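The levels of 7 genes for drug efflux pumps of the ATP-binding cassette (ABC) superfamily were followed in NIH/3T3, a fibroblast line from mouse embryos. They were chosen by symbol, as possible routes by which a small-molecule inhibitor leaves the cell: Abcb1a, Abcb1b, Abcc1, Abcc3, Abcc4, Abcc5 and Abcg2. All 7 were found among the 54752 genes of the count table. RNA depleted of rRNA was sequenced from 3 groups with 2 libraries each. Vehicle cells received PBS. The other cells received TGF-β1 at 1 ng/ml, either with DMSO or with BI6727, an inhibitor of the mitotic kinase PLK1, at 5 μM, and all were collected after 72 h. The vehicle was PBS, and no library had DMSO or BI6727 without TGF-β1, so the effects of TGF-β1 and of DMSO cannot be told apart, and those of BI6727 were measured only on top of TGF-β1.

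Drug efflux pumps are membrane proteins that use ATP to move lipophilic drugs and drug conjugates out of the cell. The ABCB1 protein, P-glycoprotein, takes hydrophobic compounds from the membrane, and mice make it from a pair of genes, Abcb1a and Abcb1b, where humans have a single one. The ABCC proteins export organic anions such as glutathione and glucuronide conjugates, and ABCG2, the breast cancer resistance protein, exports a wide range of drugs and sulfate conjugates. The RNA of a pump is not a measure of its transport, which was not measured in these libraries.

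The pair of P-glycoprotein genes is shown first because the reads have to tell them apart. Their coding sequences in Gencode M21 are 3828 bases long each and were identical at 88.0% of 3819 aligned bases, with a median of 4 differences in 50 bases, the number of sequencing cycles. The first 50 coding bases show what separates a read of one gene from a read of the other, with the bases that differ in capitals.
Abcb1a: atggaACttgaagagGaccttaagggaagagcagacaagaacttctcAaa
Abcb1b: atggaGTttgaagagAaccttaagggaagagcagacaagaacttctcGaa
In 49.8% of the aligned windows the genes differed at 3 bases or fewer. Of the 50-base windows over its transcripts, 22.5% of those of Abcb1a and 12.8% of those of Abcb1b occur letter for letter, on either strand, in another gene. For Abcb1a these genes were Abcb1b, Abcb4 and the antisense gene Gm42686. For Abcb1b they included Abcb1a and Abcb4, but also genes such as Arhgef37 and Bbs9. These shares are thus not those of the pair alone. With up to 3 mismatches, 35.5% of the windows of Abcb1a match Abcb1b. For the other 5 members the exact share was at most 0.844%.

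The genes lie side by side on chromosome 5 of mm10, Abcb1a (ENSMUSG00000040584.8) at 8660077 to 8748575 and Abcb1b (ENSMUSG00000028970.9) at 8798147 to 8866315, both on the plus strand. Because one of the pair was called and the other was not, the 250 bases before their RefSeq start sites are given (GRCm38.p6, plus strand, motifs found in capitals). The Abcb1a window is chr5:8566841-8567090 and the Abcb1b window is chr5:8797897-8798146.
Abcb1a: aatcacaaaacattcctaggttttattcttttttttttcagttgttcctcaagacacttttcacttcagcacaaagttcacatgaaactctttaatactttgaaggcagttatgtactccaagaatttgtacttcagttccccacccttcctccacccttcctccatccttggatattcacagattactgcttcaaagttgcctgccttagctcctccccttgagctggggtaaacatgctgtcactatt
Abcb1b: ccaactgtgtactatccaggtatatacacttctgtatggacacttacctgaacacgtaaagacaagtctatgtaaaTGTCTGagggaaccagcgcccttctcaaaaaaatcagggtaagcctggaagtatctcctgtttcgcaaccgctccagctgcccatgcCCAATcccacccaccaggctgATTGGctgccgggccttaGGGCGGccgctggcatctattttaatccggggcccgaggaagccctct
The RefSeq start of Abcb1a lies 93.0 kb upstream of the start in the count table, so this window belongs to an upstream start site, while the starts of Abcb1b coincide. Windows were searched on both strands for 9 motifs. The Abcb1b window held CAGACA, a SMAD box with flank, on the minus strand at positions -174 to -169 from the start, CCAAT at -87 to -83 and, on the minus strand, at -66 to -62, and the GC box GGGCGG at -48 to -43. Among 32851 windows of this length, 17.1% held CAGACA, 33.8% CCAAT and 32.7% GGGCGG. In the Abcb1a window none of these was found, nor TGANNNNGC (in 35.2% of all windows), GCGTG (28.2%), TATAAA (12.4%), TGANTCA (6.75%), CACGTG (6.02%) or GTCTAGAC (0.167%). The Abcb1a window had a GC content of 40.4% and the Abcb1b window of 52.8%, with a median of 52.4% over all windows. RefSeq windows were found for 5 members, the others being Abcc1 and Abcc3.

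The libraries held 18362378 to 24452153 counts on genes. Levels are given as normalized CPM, the CPM of the library after TMM scaling, with mean ± SD of 2 libraries. Of the fibroblast markers, 9 of 10 reached 10 CPM, and their summed level was 8466 to 8791 normalized CPM in vehicle, 7976 to 10547 with DMSO and 8402 to 8439 with BI6727. Against vehicle 2 of the 10, Pdgfra (log2 fold change -1.87) and Lum (-3.14), fell with DMSO, and 4 fell with BI6727, the same 2 with Thy1 and Pdgfrb. The part of these changes in those of the transporters was not tested. Epithelial markers summed to at most 1.28 normalized CPM in a library, and leukocyte markers to at most 5.60. DMSO replicate 2 stood apart. Its log2 difference from DMSO replicate 1 had an SD over genes of 0.377, against 0.163 between the vehicle libraries and 0.147 between the BI6727 libraries, and in DMSO replicate 2 genes of 8 kb lay 0.18 below, and genes of 1 kb 0.25 above, the mean of the 6 libraries on the log2 scale. In the other 5 libraries these trends lay between -0.11 and 0.08. Of 10 TGF-β1 response genes, 6 rose with TGF-β1 and DMSO against vehicle, among them Acta2, the gene of α-smooth muscle actin (log2 fold change 2.30). Not called, by the test described below, were Col1a1 (0.67) and Tagln (1.71), and Cnn1 (-2.49) and Tgfbi (-1.09), which went the other way. Over the 17936 genes tested, 5.02% were called with DMSO and 5.18% with BI6727 against vehicle.

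A quasi-likelihood test in edgeR, fitted once to the 6 libraries, compared the groups. Genes past a fold change of 2 with a p below 0.01 after Benjamini-Hochberg adjustment were called. Among the 9518 genes that reached 10 CPM in more than 3 libraries were 5 members. Abcb1a and Abcc3, which lie below this level, were tested among the 17936 genes with at least 10 counts in total. Nothing in the labels says that the libraries of a group came from separate cultures, so the p-values measure the spread between these libraries, which may be technical.

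With TGF-β1 and DMSO, Abcb1a rose and Abcc3 fell, and the other 5 members were not called. In the table of 17936 genes, 2 of 7 members were called, where 5.02% of all genes were. Abcc3 entered that table through its vehicle counts alone. Among the 5 members at 10 CPM, edgeR called 0, where 5.1% of genes were called, and DESeq2 also called 0. The share of all genes that DESeq2 called is not given here for any comparison. At an unadjusted p below 0.05 there were 2 of these 5, Abcc1 and Abcg2, where this held for 37.8% of genes, so this count is near the background. The DMSO and vehicle libraries did not overlap for 6 members, all but Abcc4, where they did not overlap in 56.8% of all genes. The median log2 fold change of the 7 members was -0.36, and of all genes it lay within 0.01 of 0.

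**Figure D1:**
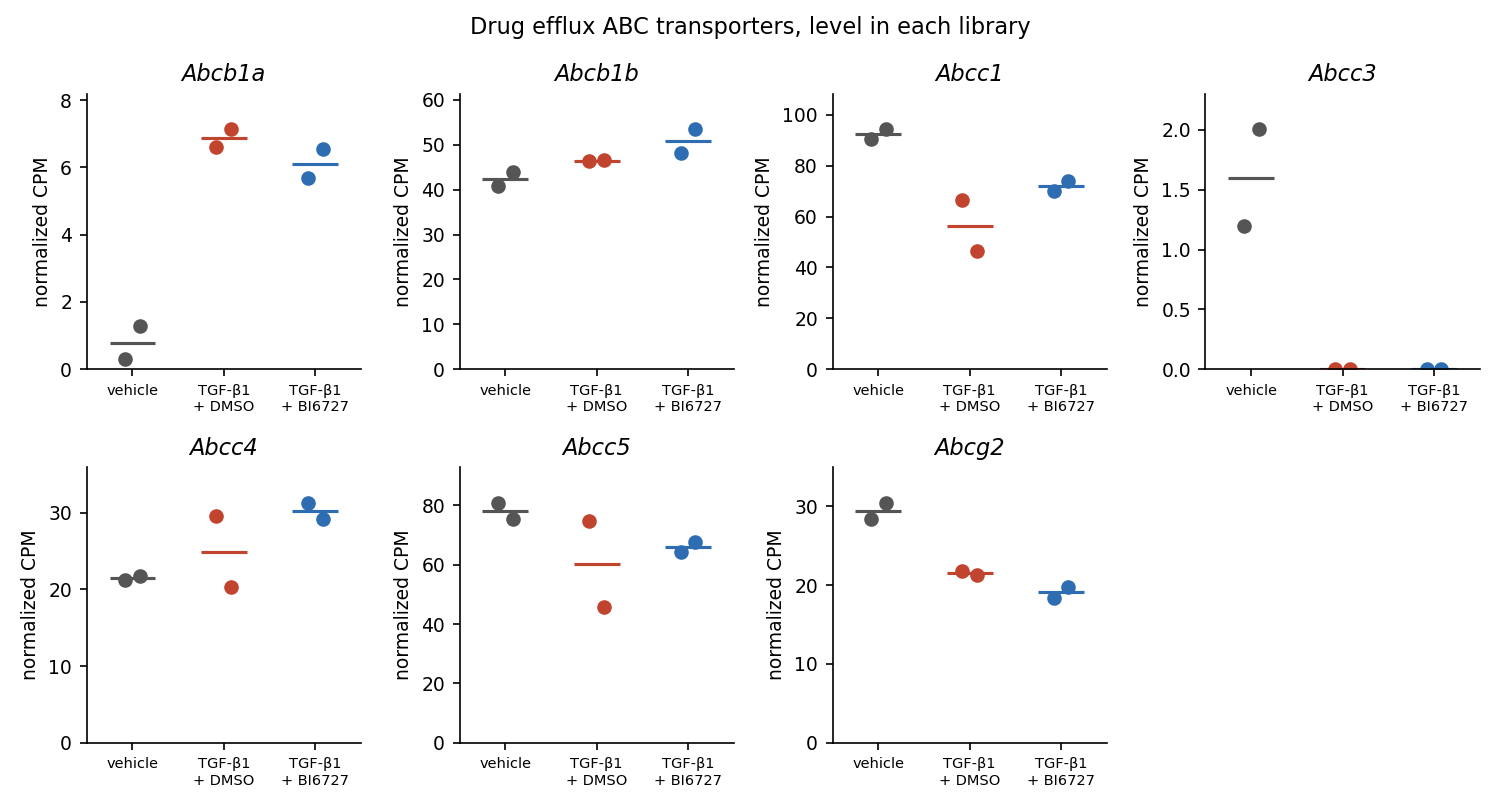
Level of each of the 7 transporters in normalized CPM (vertical axis, from 0, a separate scale for each gene) in the 3 groups (horizontal axis). Points are libraries and bars are means of 2 libraries. Abcb1a lay at 0.312 and 1.27 in vehicle and at 5.67 or more in the treated libraries, Abcc3 was at 0 in all 4 treated libraries, and the DMSO libraries were wide apart for Abcc1, Abcc4 and Abcc5.

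Abcb1a, the P-glycoprotein gene that is prominent in the endothelium of the blood-brain barrier and in gut, was close to absent in vehicle cells. It had 6 and 28 counts in the vehicle libraries, 137 and 148 with TGF-β1 and DMSO, and 102 and 158 with TGF-β1 and BI6727. This was 0.312 and 1.27 normalized CPM in vehicle, 6.61 and 7.13 with DMSO, and 5.67 and 6.54 with BI6727. Every treated library lay above both vehicle libraries, and the vehicle libraries themselves differed several-fold at these low counts. The mean went from 0.793 ± 0.681 to 6.87 ± 0.361 normalized CPM (SD, n = 2) with DMSO. The fitted log2 fold change was 3.08, a fold change of 8.43 (standard error 0.42, 95% confidence interval 2.13 to 4.02, Benjamini-Hochberg adjusted p = 0.00102 in edgeR's test). Without vehicle replicate 1 it was 2.42, and without vehicle replicate 2, 4.45. The call was lost at adjusted p = 0.0106 in the edgeR fit of only the 2 groups compared, and at 0.0127 and 0.0122 without BI6727 replicate 1 or 2.

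Abcb1b, the P-glycoprotein gene known from adrenal, uterus and many cultured mouse cells, was the main one of the pair in every library. It had 785 and 967 counts in vehicle, 960 and 966 with DMSO, and 866 and 1290 with BI6727. Its levels were 40.8 and 44.0 normalized CPM in vehicle, 46.4 and 46.5 with DMSO, and 48.2 and 53.4 with BI6727. The groups did not overlap, but they lay close together. The log2 fold change with DMSO was 0.13 (standard error 0.11, confidence interval -0.13 to 0.40, adjusted p = 0.423 by the same edgeR test).

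The share of Abcb1a in the counts of the pair moved with its level. It was 0.759% (95% Wilson interval 0.348% to 1.64%) in vehicle replicate 1 and 2.81% (1.95% to 4.04%) in vehicle replicate 2. It was 12.5% (10.7% to 14.6%) and 13.3% (11.4% to 15.4%) with DMSO, and 10.5% (8.76% to 12.6%) and 10.9% (9.41% to 12.6%) with BI6727. The intervals of the treated libraries lay above those of both vehicle libraries, and those of DMSO and BI6727 overlapped. These intervals cover counting error only. Reads of Abcb1b counted on Abcb1a were not measured, and Abcb1a had 6 counts beside 785 of Abcb1b in vehicle replicate 1 and 28 beside 967 in vehicle replicate 2. Of the exonic length of Abcb1a, 10.1% lies under an antisense gene, Gm42686, which had 0 counts in 5 libraries and 2 in BI6727 replicate 2. The strand setting of the counting is not given in the sources used here, so reads of Abcb1a and of Gm42686 cannot be told apart in that stretch.

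**Figure D2:**
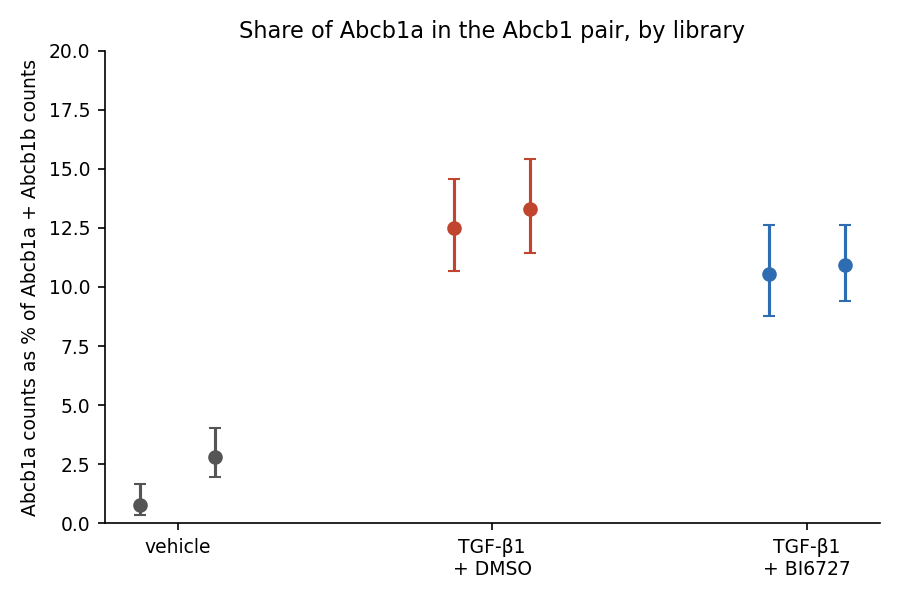
Counts of Abcb1a as a percentage of the counts of Abcb1a and Abcb1b together (vertical axis) in each library of the 3 groups (horizontal axis). Points are libraries and bars are 95% Wilson intervals, which cover counting error only. The vehicle libraries lay at 0.759% and 2.81%, and the 4 treated libraries between 10.5% and 13.3%.

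The summed level of endothelial markers was higher in the treated libraries too, and Vwf made up most of it. Endothelium is a cell type rich in Abcb1a in the body. The 6 endothelial markers summed to 5.19 to 7.55 normalized CPM in vehicle, 12.04 to 18.3 with DMSO and 10.3 to 10.7 with BI6727. None of the 4 that were tested was called by edgeR. With DMSO, 3 had an unadjusted p below 0.05 in edgeR's test, where this held for 30.5% of the 17936 genes. Of the 6, Kdr and Emcn were at 0 in every library. Tek had 2 and 4 counts in vehicle, 4 and 0 with DMSO, and 2 and 8 with BI6727. Pecam1 had 4 and 5, 10 and 24, and 12 and 12 counts in the same groups. Vwf, the gene of von Willebrand factor, had 94 and 146 counts in vehicle, 300 and 190 with DMSO, and 149 and 195 with BI6727. Cdh5, the gene of VE-cadherin, had 0 and 11 counts in vehicle, 64 and 36 with DMSO, and 22 and 44 with BI6727. Whether endothelial cells were present in this fibroblast line was not tested, nor was the part of these genes in the rise of Abcb1a. In bulk RNA a change in the number of cells that carry a transcript and in its level per cell cannot be told apart.

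Abcc3 (ENSMUSG00000020865.16, chromosome 11, 94343295 to 94392997, minus strand), a pump of glucuronide conjugates and bile salts, was detected in vehicle cells and in no treated library. It had 23 and 44 counts in the vehicle libraries, 1.19 and 2.00 normalized CPM, and 0 counts in both DMSO and both BI6727 libraries. A count of 0 allows up to 3 counts, or 0.144 to 0.145 normalized CPM in the DMSO libraries and 0.124 to 0.167 in the BI6727 libraries. Against this floor, taken per library and averaged, the vehicle mean of 1.598 ± 0.571 (SD, n = 2) was 11.05-fold higher with DMSO and 10.98-fold higher with BI6727. These folds take the vehicle mean as given and do not cover the spread between the vehicle libraries, which were at 1.19 and 2.00. The adjusted p by edgeR's quasi-likelihood test was 0.00525 with DMSO and 0.00493 with BI6727. The call rests on the vehicle libraries, whose counts alone took Abcc3 past the filter of 10 counts in total. Without vehicle replicate 1 the adjusted p in edgeR's test was 0.0451 with DMSO and 0.0410 with BI6727, and without vehicle replicate 2 it was 0.0888 and 0.0859. The call of Abcc3 was also lost in both comparisons without BI6727 replicate 1 or 2. For DMSO against vehicle it was lost in the fit of only the 2 groups compared (adjusted p = 0.0112 in edgeR's test). None of its 50-base windows occurs in another gene, and no other gene overlaps its exons.

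Abcc1 (ENSMUSG00000023088.17, chromosome 16, 14361558 to 14475737, plus strand), the exporter of glutathione conjugates known as MRP1, had the highest count of the members in vehicle. Its levels were 90.4 and 94.2 normalized CPM in vehicle, 66.4 and 46.6 with DMSO, and 70.0 and 74.0 with BI6727. All treated libraries lay below both vehicle libraries, and the DMSO libraries lay on average lowest but far apart. The log2 fold change with DMSO was -0.71 (standard error 0.16, confidence interval -1.09 to -0.32, adjusted p = 0.0214 in edgeR's test), which did not pass the threshold. It was -0.46 without DMSO replicate 2 and -0.46 after removal of the trend that each library had on length, where the exonic length of Abcc1 is 15092 bases. Without DMSO replicate 1 it was -0.99.

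Abcg2 (ENSMUSG00000029802.13, chromosome 6, 58584523 to 58695676, plus strand) was lower in all treated libraries than in vehicle, with the replicates of each group close together. Its levels were 28.4 and 30.4 normalized CPM in vehicle, 21.8 and 21.3 with DMSO, and 18.4 and 19.8 with BI6727. The 3 groups were apart, in that order, with means of 29.4 ± 1.44, 21.5 ± 0.350 and 19.1 ± 0.973 (SD, n = 2). The log2 fold change against vehicle was -0.45 with DMSO (standard error 0.13, adjusted p = 0.0425 by the same edgeR test) and -0.62 with BI6727 (standard error 0.13, adjusted p = 0.0131), and neither reached a fold change of 2. With DMSO it was -0.42 without DMSO replicate 2 and -0.31 with the length trend removed.

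Abcc4 (ENSMUSG00000032849.14, chromosome 14, 118482692 to 118706219, minus strand), which exports cyclic nucleotides and prostaglandins, had 21.2 and 21.8 normalized CPM in vehicle, 29.5 and 20.3 with DMSO, and 31.3 and 29.1 with BI6727. The DMSO libraries lay on either side of the vehicle libraries, and both BI6727 libraries lay above them. Its log2 fold change with DMSO was 0.22 (adjusted p = 0.427 by edgeR's quasi-likelihood test), and it turned to -0.085 without DMSO replicate 1 and was 0.47 without DMSO replicate 2.

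Abcc5 (ENSMUSG00000022822.16, chromosome 16, 20331303 to 20426394, minus strand), another exporter of cyclic nucleotides, had 80.9 and 75.4 normalized CPM in vehicle, 74.8 and 45.7 with DMSO, and 64.4 and 67.6 with BI6727. DMSO replicate 1 lay next to the vehicle libraries and DMSO replicate 2 below every other library. The log2 fold change with DMSO was -0.37 (adjusted p = 0.229 by edgeR's quasi-likelihood test). It was -0.05 without DMSO replicate 2 and -0.78 without DMSO replicate 1. Between the DMSO libraries, replicate 1 was 1.64 times replicate 2 for Abcc5, 1.45 times for Abcc4 and 1.43 times for Abcc1, while for Abcg2, Abcb1b and Abcb1a the ratio lay between 0.928 and 1.02.

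The comparison of BI6727 with DMSO, both on top of TGF-β1, asks whether the PLK1 inhibitor itself moved the pumps. None was called by edgeR (0 of 5 members at 10 CPM, where 0% of genes were called, and 0 of 7 in the table of 17936 genes, where 0.0112% were). DESeq2 called 0 members too, and 0 had an unadjusted p below 0.05 in edgeR's test. The libraries of these groups did not overlap for 4 members, where this held for 34.5% of genes.

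The intervals of the log2 differences show what this comparison leaves possible. For Abcb1b it was 0.13 (95% confidence interval -0.13 to 0.40), for Abcg2 -0.17 (-0.47 to 0.13) and for Abcb1a -0.16 (-0.92 to 0.60). Abcb1b thus had the narrowest interval and Abcb1a the widest. For Abcc1 the difference was 0.35 (-0.03 to 0.74), for Abcc4 0.28 (-0.16 to 0.71) and for Abcc5 0.13 (-0.36 to 0.62). All 6 intervals held 0 and lay within a fold change of 2. The smallest adjusted p of the members was 0.747 (Abcc1, edgeR's quasi-likelihood test). Abcc3 was at 0 in all 4 libraries, so no fold is given.

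The size of the differences of the ABCC genes depended on which DMSO library was used. Without DMSO replicate 2 they were 0.11 for Abcc1, 0.02 for Abcc4 and -0.19 for Abcc5. Without DMSO replicate 1, BI6727 was compared with DMSO replicate 2 alone, and the same genes were at 0.63, 0.57 and 0.53, with fold changes below 2. The spread of the DMSO group could not be measured in that fit.

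**Figure D3:**
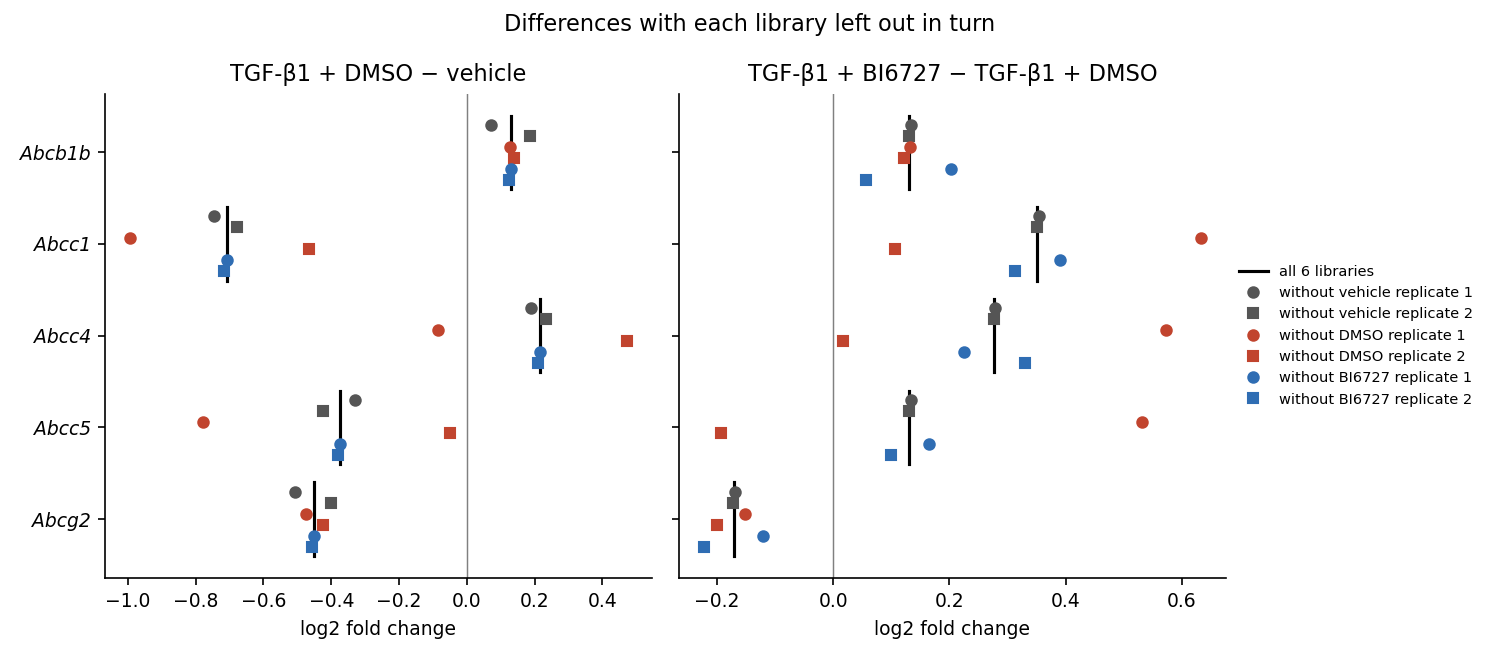
Log2 fold change (horizontal axis) of the 5 members at 10 CPM with TGF-β1 and DMSO against vehicle (left) and BI6727 against DMSO (right), with each library left out in turn. Vertical bars are the fits of all 6 libraries, points the fits without 1 library, coloured by its group. The points without a DMSO library (red) lay farthest from the bar for Abcc1, Abcc4 and Abcc5, and Abcc5 was at -0.19 between BI6727 and DMSO without DMSO replicate 2.

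Against vehicle, the cells with TGF-β1 and BI6727 had the same 2 members called, Abcb1a and Abcc3, in the table where 5.18% of genes were called. As said for DMSO, Abcc3 entered this table through its vehicle counts alone. Among the 5 members at 10 CPM edgeR and DESeq2 called 0, where 5.31% of genes were called by edgeR, and 2 of the 5, Abcc4 and Abcg2, had an unadjusted p below 0.05, as did 37.7% of genes. The groups did not overlap for any of the 7 members, as in 65.6% of genes. This comparison uses the same vehicle libraries as that of DMSO, so it is no independent repeat. Abcb1a had a log2 fold change of 2.92 (standard error 0.42, confidence interval 1.96 to 3.87, adjusted p = 0.00135 by edgeR's quasi-likelihood test), a fold change of 7.54. It was 2.26 without vehicle replicate 1 and 4.29 without vehicle replicate 2, and the call was lost at adjusted p = 0.0280 and 0.0399 in edgeR's test without BI6727 replicate 1 or 2.

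The other members differed less from vehicle. Abcc4 was at 0.49 (confidence interval 0.05 to 0.93, adjusted p = 0.0996 by edgeR's test), Abcb1b at 0.26 (-0.0043 to 0.53) and Abcc1 at -0.36 (-0.74 to 0.02) on the log2 scale. Abcc5 was at -0.24 (-0.73 to 0.25). Abcg2 was at -0.62 (-0.92 to -0.32, adjusted p = 0.0131 by edgeR's test), the largest in size of the 5 members at 10 CPM. With DMSO against vehicle, Abcc4, Abcb1b, Abcc1 and Abcc5 were at 0.22, 0.13, -0.71 and -0.37, and Abcg2 at -0.45.

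**Figure D4:**
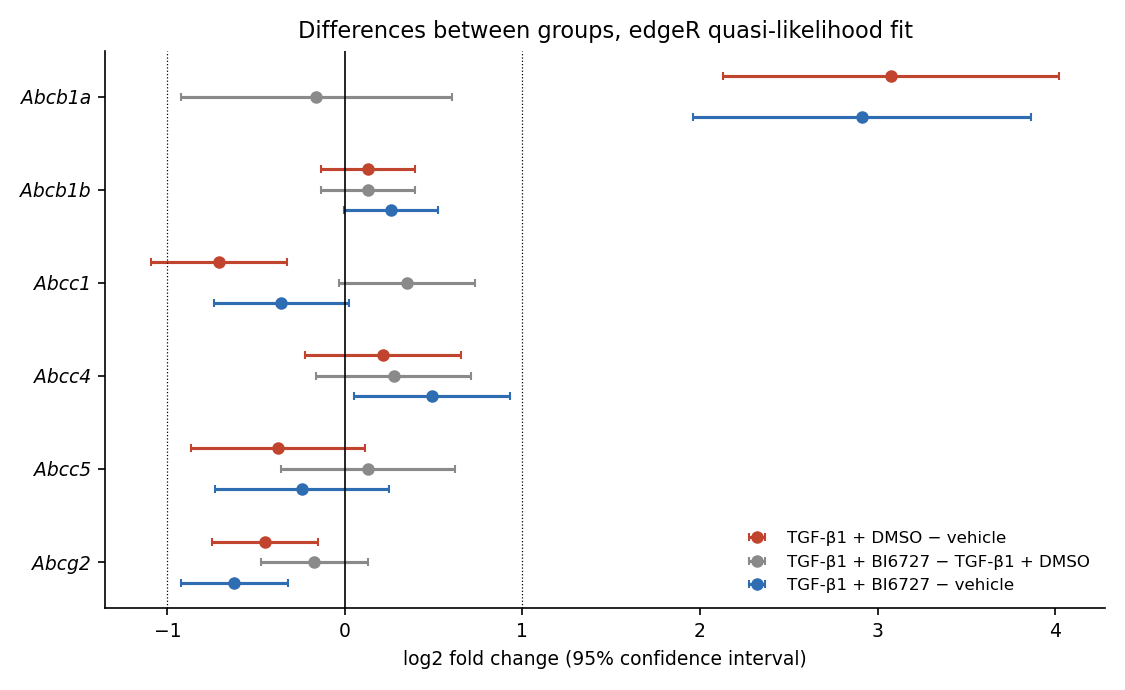
Log2 fold change (horizontal axis) with its 95% confidence interval (bars) for 6 transporters in the 3 comparisons (colours), from edgeR's fit of 6 libraries, with dotted lines at a fold change of 2. Abcc3 is left out because it had 0 counts in the treated libraries. Only Abcb1a lay beyond the dotted lines, at 3.08 and 2.92 against vehicle, and all intervals of BI6727 against DMSO held 0.

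Per length, the levels of the 7 genes could be set in order. In normalized CPM per kb of exon, vehicle cells had 7.31 of Abcc5, 6.12 of Abcc1, 5.30 of Abcb1b, 3.61 of Abcg2, 3.36 of Abcc4, 0.280 of Abcc3 and 0.145 of Abcb1a. Neighbours in this order did not overlap between libraries, except Abcc3 and Abcb1a. With DMSO, the order was Abcb1b (5.81), Abcc5 (5.64), Abcc4 (3.90), Abcc1 (3.74), Abcg2 (2.64), Abcb1a (1.25) and Abcc3 (0). The ranges of the first 4 overlapped from one to the next. With BI6727 it was Abcb1b (6.36), Abcc5 (6.18), Abcc1 (4.77), Abcc4 (4.73), Abcg2 (2.34), Abcb1a (1.11) and Abcc3 (0), where Abcb1b overlapped with Abcc5 and Abcc1 with Abcc4. Scaled as TPM, Abcc5 and Abcb1b changed places with DMSO.

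The summed level of the 7 genes per kb was 25.7 and 26.5 in vehicle, 25.7 and 20.3 with DMSO, and 24.9 and 26.1 with BI6727, so the groups overlapped. Within the sum, Abcb1a made up 0.221% and 0.876% in vehicle, 4.70% and 6.41% with DMSO, and 4.16% and 4.57% with BI6727. Abcc1 made up 23.3% and 23.5% in vehicle, 17.1% and 15.2% with DMSO, and 18.6% and 18.8% with BI6727.

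The rest of the ABC superfamily was read from lists of the same kind. The 53 ABC genes listed included 17 with fewer than 10 counts over all libraries. Against vehicle, edgeR called 5.02% of the 17936 genes with DMSO and 5.18% with BI6727. An unadjusted p below 0.05 in that test held for 30.5% and 30.6% of them. Of 15 other ABCB, ABCC and ABCG genes of the cell surface, 5 were tested and 0 were called by edgeR in any comparison, with 1, Abcc2, at an unadjusted p below 0.05 against vehicle in both treated groups. Abcc10, a pump of amphipathic anions, led these with 1.57 normalized CPM per kb in vehicle, followed by Abcg4 with 0.0923, both below the 5 abundant members. Of 16 ABCA lipid transporters, where Abca2 (7.80) and Abca7 (6.14) had the highest levels per kb, 9 were tested. Abca1, the cholesterol efflux pump, fell with DMSO (log2 fold change -2.15) and with BI6727 (-3.18) against vehicle, and Abca8b fell with BI6727 (-1.72). Of 11 ABC transporters of organelles, where Abcd3 (15.5) and Abcb10 (12.03) were highest, Abcd2, a peroxisomal carrier of fatty acids, fell in both (-1.96 and -2.27). The 4 soluble ABC proteins, led by Abcf2 (79.3) and Abcf1 (43.6), had 0 called by edgeR in any comparison, and 2 at an unadjusted p below 0.05 with BI6727 against vehicle. Between BI6727 and DMSO edgeR called 0 genes of these 4 lists, with 1, an organelle gene, at an unadjusted p below 0.05. Over the 17936 genes these shares were 0.0112% and 6.57%.

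Genes that act beside the pumps were read in the same way. A list of 33 genes held enzymes of glutathione synthesis, of conjugation and of oxidation and other early steps of drug metabolism. Of these, 27 were tested, and 7 fell with DMSO against vehicle, while 0 were called higher by edgeR. Over all genes, 5.02% of the 17936 and 5.1% of those at 10 CPM were called in this comparison. Those that fell were the conjugating enzymes Gstm1 (log2 fold change -1.89), Gstm2 (-1.02), Gstt1 (-1.84) and Ugt1a7c (-3.62), and, of other enzyme classes, the cytochrome P450 Cyp1b1 (-1.44), the epoxide hydrolase Ephx1 (-1.004) and the oxidase Aox1 (-1.47). How far the Gstm and Ugt1a genes share reads with others of their families was not measured. The glutathione synthesis genes Gclc (-0.05), Gclm (0.02) and Gss (0.40) were not called, and Gsto1, named after its values were seen, was at 0.76 with DMSO (adjusted p = 0.00526 in edgeR's test), below a fold change of 2. With BI6727 against vehicle 8 fell, where 5.18% of the 17936 genes were called. The call of Aox1 was lost, and Mgst3 (-1.005) and Ugt1a6b (-1.93) were called besides. The median log2 fold change was -0.20 with DMSO and -0.34 with BI6727 over the 18 genes at 10 CPM, and -0.57 and -0.69 over the 27, against medians within 0.02 of 0 over all genes. Of 25 SLC drug carriers, 14 were tested. Against vehicle, 3 were called with DMSO and 2 with BI6727, beside the same 5.02% and 5.18% of the 17936 genes. Slc22a4, a carrier of ergothioneine, rose with DMSO (1.44) and with BI6727 (1.68), and Slco2a1, the prostaglandin carrier, fell (-2.64 and -2.61). Slc22a23 fell with DMSO (-1.08). Slc29a1, a nucleoside carrier named after its values were seen, was at 0.85 with DMSO (adjusted p = 0.00346 in edgeR's test), below a fold change of 2.

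Of 18 transcription factors and receptors of the xenobiotic response, 14 were tested and 0 were called by edgeR in any comparison. Against vehicle, 8 with DMSO and 7 with BI6727 had an unadjusted p below 0.05. This held for 37.8% and 37.7% of the genes at 10 CPM, and for 30.5% and 30.6% of the 17936 genes. Of these 14, 3 genes, named after their values were seen, had an adjusted p below 0.01 in edgeR's test against vehicle and stayed below a fold change of 2. They were Ahr, the aryl hydrocarbon receptor (log2 fold change -0.88 with DMSO, -0.99 with BI6727), Rxra (-0.79 and -0.93) and Nfe2l2, the gene of NRF2 (-0.53 and -0.62). Nr1i2, the gene of the pregnane X receptor, had at most 4 counts in a library and Nr1i3, that of the constitutive androstane receptor, at most 2.

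The genes around the called members were read from the same table. Within 250 kb of Abcb1a, 8 of 16 other genes were tested with DMSO against vehicle and 0 were called by edgeR. An unadjusted p below 0.05 was found for 2, Crot and Dbf4. Over the 17936 genes, 5.02% were called and 30.5% had an unadjusted p below 0.05. Next to the pair, Abcb4, the phospholipid pump of the bile canaliculus, had 2 and 7 counts in vehicle, 14 and 2 with DMSO, and 0 and 4 with BI6727. Crot, the carnitine octanoyltransferase, was at -0.43 (log2) with DMSO, and Dbf4, a regulator of the replication kinase CDC7, at 0.29. Within 250 kb of Abcc3, 11 of 16 other genes were tested and 0 were called by edgeR, with 4 at an unadjusted p below 0.05. The counts of neighbours at an unadjusted p below 0.05 are thus near the background share of 30.5%. Cacna1g, a calcium channel gene next to Abcc3, was at -1.10 with DMSO and -1.35 with BI6727 (adjusted p = 0.0793 and 0.0399 by edgeR's quasi-likelihood test), with 63 and 66 counts in vehicle, 38 and 22 with DMSO, and 27 and 23 with BI6727. Its treated libraries all lay below vehicle. Ankrd40, on the other side of Abcc3, was at -0.18 with DMSO.

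Among the 9518 genes at 10 CPM, the patterns most like that of Abcb1a over the 6 libraries were those of Pabpc4 (Pearson r = 0.996 of log2 normalized CPM), Cpeb2 (0.993) and Pes1 (0.993), and 241 genes had an r of at least 0.95. For Abcc3 they were Zfp316 (0.998), Tbl1xr1 (0.997) and Bloc1s6 (0.997), with 530 genes at that r or more. The 6 libraries fall into vehicle and treated, so any gene that differs between these gives a high r.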

How the data were processed

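Total RNA of NIH/3T3 cells was depleted of rRNA and sequenced by the authors with single-end reads of 50 cycles. The authors mapped the reads to mm10 with Subjunc (Subread 1.6.4), used featureCounts with the Gencode M20 annotation, and deposited the raw counts of each gene. Exonic lengths came from the same table, and 54723 of 54752 gene identifiers matched a symbol. Multimapping and strand settings of the counting are not given in the sources used here.

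Counts were scaled by TMM and compared with edgeR 4.0.16 in R 4.3.3 (quasi-likelihood test, 3 groups in one fit, no covariate, 3 residual degrees of freedom, Benjamini-Hochberg adjustment over all genes tested), at the 10 CPM filter of the study and at 10 counts in total. Standard errors were taken from the log2 fold change and the square root of F. DESeq2 1.42.0, other filters, thresholds, scalings, blocks and left-out libraries were alternatives. A lowess of span 0.3 gave the length offsets. The test was also run on simulated counts, and the outcome is not given here.

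The members and gene lists were chosen with earlier results of these data known. Named besides the 7 members were list genes called in any comparison, the 2 most abundant genes of each ABC list per kb, the 3 genes most like each called member, and genes within 250 kb of those. The genes around called members, single markers and list genes that were not called were picked after their values were seen. Libraries of 18362378 counts or more make 3 counts at most 0.163 CPM. Promoter windows are from RefSeq and coding sequences from Gencode M21.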

Additional observations from a re-analysis of the deposited data

How the results depend on the processing

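The count of members called among genes at 10 CPM depended on the filter, since Abcb1a and Abcc3 enter only with a lower one. Against 0 called, both comparisons with vehicle gave 2 with filterByExpr, 1 with at least 1 CPM in more than 3 libraries and 2 with at least 10 counts in total. At an adjusted p below 0.05 with no fold change minimum, 2 members (Abcc1 and Abcg2) were called with DMSO and 1 (Abcg2) with BI6727. An unadjusted p below 0.05 in edgeR's test held for 37.8% and 37.7% of genes at 10 CPM. The shares of all genes called under the alternative settings of this paragraph are not given here, so these counts have no background beside them. In the table of 17936 genes, the count of 2 members called against vehicle became 1 in both comparisons with at least 1 CPM, a filter that Abcc3 does not pass, and 0 for DMSO with only the 2 groups compared. With each library left out in turn they ranged from 0 to 2 in both comparisons. There were 0 without either BI6727 library, and 1 without either vehicle library. A lone library was assumed to vary like the other groups. Of the log2 fold changes, the direction turned only for Abcc4 with DMSO against vehicle, which ranged from -0.085 to 0.47 over the left-out libraries (-0.085 without DMSO replicate 1), and for Abcc5 between BI6727 and DMSO, from -0.19 (without DMSO replicate 2) to 0.53, and the cause was not tested.

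The labels do not say whether replicate numbers pair the libraries. Deviations of same-numbered libraries from their group means correlated across genes with r = -0.11 between vehicle and DMSO, 0.0468 between vehicle and BI6727, and -0.258 between DMSO and BI6727. With 2 libraries per group, those of opposite number give the same r with the sign turned, so these values cannot decide on pairing. With the replicate block 0 members were called at 10 CPM in each comparison, and among the 17936 genes there were 2, 0 and 2, with and without the block. A crossed block, added after the data were seen, gave the same counts of 0 at 10 CPM and 2, 0 and 2. The shares of all genes called with these blocks are not given here, so the counts have no background beside them. With 2 libraries per group, a member with few counts, such as Abcc3, is limited by depth as well as by the spread between libraries.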
